A study of Mus musculus with 9 samples.

Results

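Early neural genes are described here by 10 genes chosen by symbol: Sox1, Sox3, Sox11, Pax6, Zic1, Zic2, Zic5, Hes5, Nes and Tubb3. All 10 were found among the 35896 genes of the annotated tables, and all 10 passed the filter on low counts that left 14648 genes for testing. RNA came from E14, a mouse embryonic stem cell line grown on gelatin, in 3 groups of 3 libraries. Control +LIF2i cells stayed in serum medium with the cytokine LIF, 1 µM of the MEK inhibitor PD0325901 and 1 µM of the GSK3β inhibitor CHIR99021, a mixture called LIF2i that holds the cells in self-renewal. Control 72h -LIF2i cells spent 72 h in the same medium without LIF2i. CK666 72h -LIF2i cells spent the same 72 h without LIF2i and with 80 µM CK666, an inhibitor of the Arp2/3 complex that nucleates branched actin networks. CK666 came from a DMSO stock, the labels do not mention DMSO for the controls, and drug and solvent cannot be told apart. The study calls its replicates biological and paired, and the 3 replicate numbers are used as such.

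When pluripotent cells leave self-renewal without instructive signals, part of them can turn towards neural ectoderm. SOXB1 factors (Sox1, Sox2 and Sox3) bind regulatory DNA of neural genes. Sox1 is the classical first marker of committed neuroectoderm, whereas Sox2 and Sox3 are already transcribed in the epiblast. Pax6 follows as neural progenitors mature, Hes5 reports NOTCH signalling in them, Nes encodes the intermediate filament nestin, and Sox11 and Tubb3 are best known from cells on the way to neurons. Zic2 and Zic5 encode zinc finger factors that are likewise active in both the epiblast and the early neural plate. Serum, present here throughout, carries BMP activity that is known to oppose neural conversion.

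The upstream sequences of members that moved in opposite directions are shown to compare their base composition. RefSeq start sites on GRCm38.p6 were listed for 8 of the 10 members, in 9 windows, Pax6 having a pair of them. The 250 bases before each start were read on the strand of the gene, and CG dinucleotides, the sites of DNA methylation, are in capitals. Sox11 (chr12:27342719-27342968, minus strand) and Nes (chr3:87970843-87971077, plus strand) rose after withdrawal, and Tubb3 (chr8:123411303-123411423, plus strand) fell. Of the windows of Nes and Tubb3 only the 235 and 121 bases before the first annotated exon base in GENCODE M21 are printed.
Sox11: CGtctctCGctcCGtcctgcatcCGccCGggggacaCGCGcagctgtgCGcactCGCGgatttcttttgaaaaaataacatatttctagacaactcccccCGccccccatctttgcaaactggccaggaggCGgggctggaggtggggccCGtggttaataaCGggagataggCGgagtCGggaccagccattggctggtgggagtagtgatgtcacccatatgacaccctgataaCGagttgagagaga
Nes: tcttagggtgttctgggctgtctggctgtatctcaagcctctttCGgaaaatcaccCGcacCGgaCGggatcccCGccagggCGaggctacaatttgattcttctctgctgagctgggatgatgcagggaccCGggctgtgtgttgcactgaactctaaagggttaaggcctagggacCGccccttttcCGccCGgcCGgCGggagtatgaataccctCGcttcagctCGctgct
Tubb3: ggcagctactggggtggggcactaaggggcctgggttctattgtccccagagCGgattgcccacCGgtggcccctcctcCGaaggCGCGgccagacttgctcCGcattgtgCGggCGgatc
The full windows of Sox11 and Nes held 17 and 15 CG, and those of Tubb3 and Sox1, which also fell, held 21 and 29. The printed bases of Nes and Tubb3 held 14 and 8 of theirs. The Sox1 window (12395269 to 12395518) lies mostly inside the gene, which starts at 12395295 in GENCODE M21. Over all 32851 windows of this length in the table the median was 6 CG, and the poorest member window, that of Zic5, had 11. At least 15 CG were found in 27.3% of all windows, and at least 29 in 6.78%. The GC box GGGCGG, searched on both strands and itself containing a CG, occurred in 5 of the 8 members and in 32.7% of all windows, with 2 matches each in Sox11, Nes and Tubb3 and 3 in Sox1. CG-rich windows were present both among members that rose and among members that fell.

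Depth ranged from 16894327 to 22550952 estimated counts per library, where 3 counts equal 0.142 to 0.182 CPM, the unit of levels below, which is the count relative to the library total after TMM scaling. The replicate 1 library of each group stood apart from replicates 2 and 3: it had the largest total and the fewest detected genes of its group, 15690 to 17605 against 18166 to 18749. Sox1 and Tubb3 were highest in replicate 1 in every group. Results are therefore also given without replicate 1 where that changes a call. CPM suits one gene across libraries. TPM, which also divides by transcript length, is used to set genes side by side. Values follow replicates 1, 2 and 3, with SD over n = 3 per group, and a gene is called at an edgeR adjusted p under 0.05 over all 14648 genes.

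**Figure D1:**
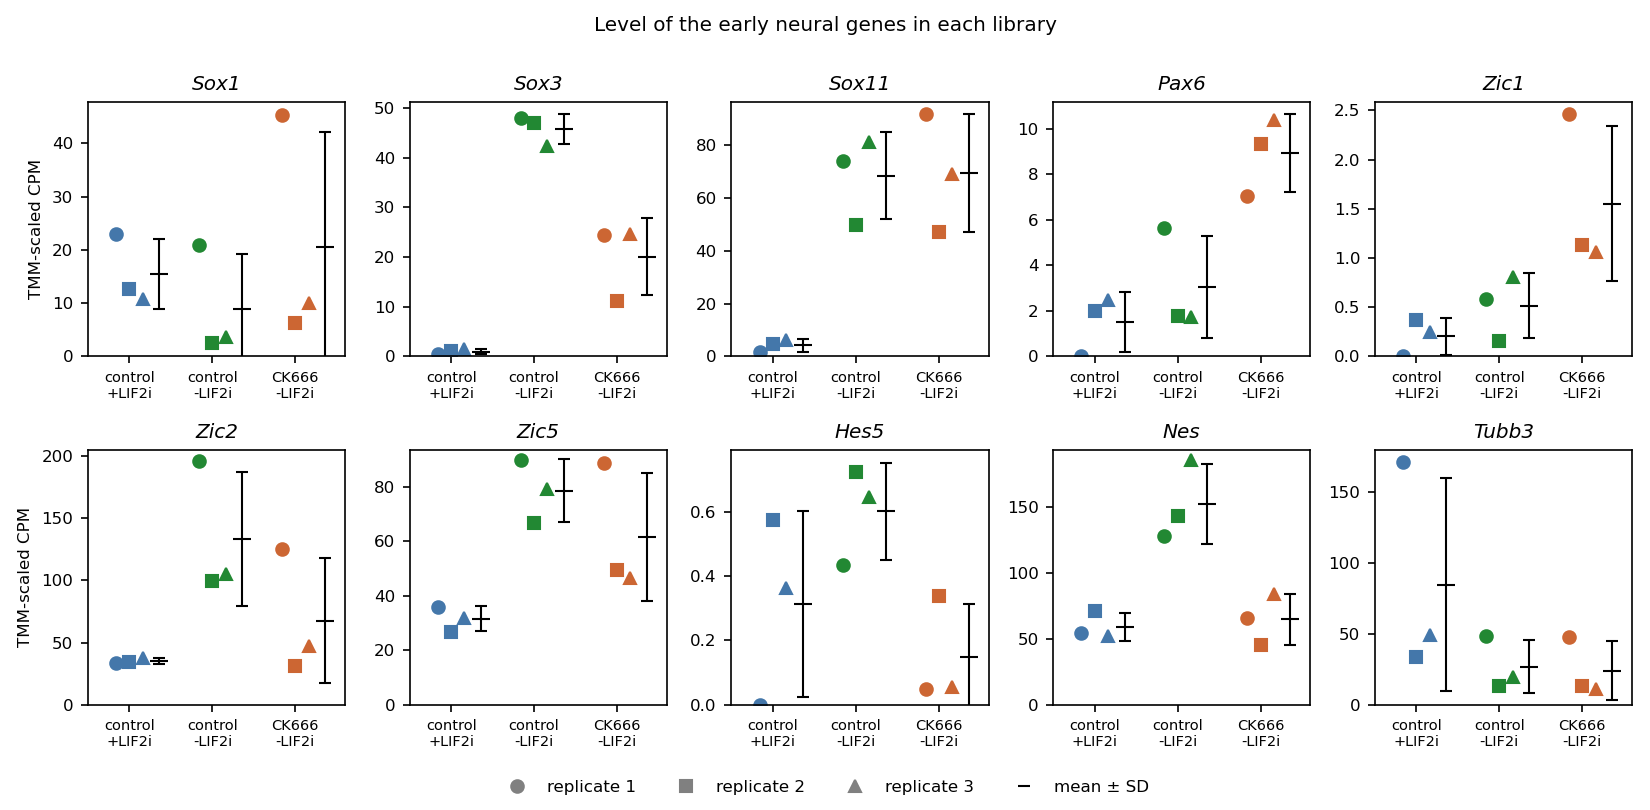
TMM-scaled CPM of the 10 early neural genes in each of the 9 libraries, with 1 panel and 1 linear axis per gene, symbols for replicates and the mean ± SD of each group (bars are cut at 0). Sox3 and Sox11 are near 0 with LIF2i and high without, Nes is high in control cells without LIF2i alone, and the replicate 1 libraries (circles) are the highest of each group for Sox1 and Tubb3.

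Withdrawal of LIF2i raised 5 of the 10 genes and lowered 2. Sox3 and Sox11 came up from very low levels, Zic2, Zic5 and Nes rose 2.5-fold to 3.45-fold from levels already present in self-renewing cells, and Sox1 and Tubb3 fell. Pax6, Zic1 and Hes5 were low in both groups and did not pass. Over all genes tested 21.1% were raised and 19.7% lowered, 40.7% in either direction, so 7 of 10 called members compare with 40.7% of the transcriptome. The median log2 fold change of the members was 1.32, against 0.01 over all genes. Bulk RNA cannot tell apart a larger share of cells of one kind from more RNA per cell.

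Among the SOXB1 genes the members went opposite ways. Sox3, a single-exon gene on chromosome X (60891366 to 60893430), was at 0.393, 0.993 and 1.46 CPM with LIF2i and at 48.0, 47.0 and 42.4 CPM after withdrawal. The groups were far apart and the withdrawn libraries close to each other. The rise of 5.65 on the log2 scale (SE 0.42, edgeR adjusted p 1.9e-05) was called in 20 of 20 alternatives, from 5.18 to 6.09. Sox1, a single-exon gene on chromosome 8 (12395295 to 12400126), was at 23, 12.6 and 10.7 CPM with LIF2i and at 20.9, 2.49 and 3.56 CPM without. It was lower in each of the 3 pairs, yet the groups overlapped through replicate 1, where the ratio was 0.909 against 0.198 and 0.333 in the others. On the log2 scale it changed by -1.36 (SE 0.38, edgeR adjusted p 0.019). This call was lost without the replicate block (-0.78, adjusted p 0.6), with voom (adjusted p 0.062) and when the replicate 2 library with (0.07) or without LIF2i (0.11), the replicate 3 library with (0.073) or without LIF2i (0.082), or all libraries of replicate 2 (0.12) or 3 (0.14) were left out.

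Sox11, a SOXC gene known for promoting neuronal gene expression (chromosome 12, 27334264 to 27342574), was at 1.47, 4.86 and 6.26 CPM with LIF2i and 74.1, 49.8 and 81.2 CPM after withdrawal. No library of one group came near the other. Its rise of 4.02 on the log2 scale (SE 0.45, edgeR adjusted p 0.00025), 16.3-fold, was called in 20 of 20 alternatives. Pax6, the paired-box regulator of eye and forebrain progenitors (chromosome 2, 105668900 to 105697364), was at 0, 1.99 and 2.49 CPM with LIF2i and 5.64, 1.76 and 1.73 CPM without. Replicate 1 was the only pair with a higher value after withdrawal, and the log2 change of 1.17 (SE 1.0, edgeR adjusted p 0.41) became -0.32 without replicate 1 (adjusted p 0.46).

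Zic2 and Zic5 lie back to back on chromosome 14, with annotated starts 9758 bases apart, and both rose. Zic2 (122475435 to 122479852) was at 33.4, 34.4 and 37.9 CPM with LIF2i and 196, 99.8 and 105 CPM without, a change of 1.79 on the log2 scale (SE 0.33, edgeR adjusted p 0.0030). Zic5 (122456795 to 122465677) was at 35.9, 26.8 and 32.0 CPM with LIF2i and 90.0, 66.8 and 79.4 CPM without. The Zic5 ratio was nearly constant over the pairs, 2.51, 2.50 and 2.48, whereas that of Zic2 was 5.88 in replicate 1 and 2.90 and 2.76 in the others. Zic5 rose by 1.32 on the log2 scale (SE 0.16, edgeR adjusted p 0.00025), and both genes were called in 20 of 20 alternatives. Zic1 (chromosome 9, 91358058 to 91365810), which marks the neural plate border and dorsal neural tube, had only 0, 7 and 4 estimated counts with LIF2i and 12, 3 and 15 without. Its log2 change of 1.22 (SE 1.1, edgeR adjusted p 0.39) rests on these few counts.

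Nes (chromosome 3, 87971078 to 87980451) was at 54.1, 70.8 and 51.7 CPM with LIF2i and 128, 143 and 186 CPM after withdrawal, without overlap. It rose by 1.34 on the log2 scale (SE 0.22, edgeR adjusted p 0.0012), called in 20 of 20 alternatives. Tubb3, the neuron-enriched β-tubulin (chromosome 8, 123411424 to 123422015), was at 171, 33.7 and 49.0 CPM with LIF2i and 48.1, 12.9 and 19.4 CPM without. Each pair fell, to 0.282, 0.382 and 0.396 of its partner, although the group ranges overlapped because of the high replicate 1 values. On the log2 scale Tubb3 changed by -1.52 (SE 0.20, edgeR adjusted p 0.00033), a call lost without the replicate block (-1.65, adjusted p 0.16). Hes5 (chromosome 4, 154960923 to 154962371) held 0, 11 and 6 estimated counts with LIF2i and 9, 14 and 12 without, and was not called (1.32, SE 0.93, edgeR adjusted p 0.29). For Hes5, 31.8% of the exonic bases overlap an annotated gene of opposite strand, and whether counting used strand is not given in the sources used here.

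**Figure D2:**
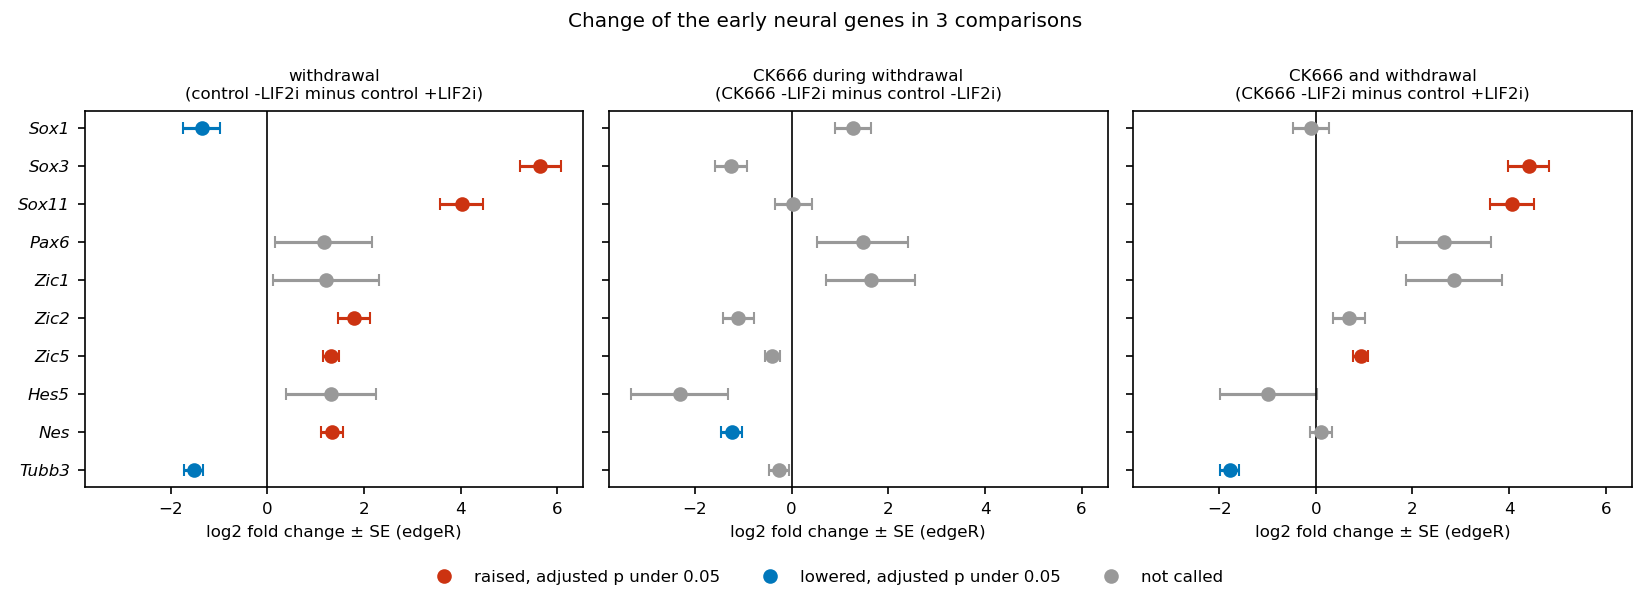
log2 fold change ± SE of the 10 genes in the 3 comparisons, from 1 edgeR fit over all libraries with the replicate block, with called genes coloured by direction. Sox3 and Sox11 lie above 4 in both comparisons with self-renewing cells, and Nes alone is called between CK666 and control cells without LIF2i.

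Between CK666 and control cells without LIF2i, Nes was lower by 2.36-fold with CK666 and was the 1 member called. Sox3, Zic2, Zic5 and Hes5 were also below the control cells in each of the 3 pairs, Sox1, Pax6 and Zic1 above them in each, and Sox11 and Tubb3 went both ways. The 1 of 10 compares with 2.05% of all genes tested, 1.15% raised and 0.894% lowered. The CPM ranges did not overlap for 5 members (Nes, Sox3 and Hes5 lower, Pax6 and Zic1 higher), which held for 16.5% of all genes. Without all replicate 1 libraries 5 members were called, against 12.3% of all genes, Sox1 and Pax6 raised and Sox3, Zic2 and Zic5 lowered. This comparison shares its control libraries with the withdrawal comparison, so an opposite sign in both is not separate evidence.

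Nes was at 65.4, 45.2 and 83.8 CPM with CK666, against 128, 143 and 186 CPM in control cells, and all CK666 libraries were below all control libraries. The pairs stood at 0.511, 0.315 and 0.450 of the control. On the log2 scale Nes changed by -1.24 (SE 0.22, edgeR adjusted p 0.031), and the adjusted p was 0.27 in the fit that left the block out. The change was called in 11 of 20 alternatives. The adjusted p was 0.061, 0.16 and 0.20 when the control libraries without LIF2i of replicates 1, 2 and 3 were left out in turn, 0.19 and 0.091 without the CK666 libraries of replicates 2 and 3, and 0.056, 0.14 and 0.23 without all libraries of replicates 1, 2 and 3. The direction held in each of these fits, from -1.42 to -0.98.

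Sox3 was at 24.5, 11.1 and 24.7 CPM with CK666, below the 42.4 to 48.0 CPM of control cells in every library. Its log2 change of -1.25 (SE 0.33) had an edgeR adjusted p of 0.080, with 0.015 without all replicate 1 libraries, 0.0099 without the replicate 1 library with LIF2i, 0.034 by voom and 0.0047 by DESeq2. These 4 of 20 alternatives were the only ones to call Sox3. Sox1 was at 45.4, 6.23 and 10.1 CPM with CK666, which is 2.17, 2.50 and 2.84 times the paired control. The ratio was similar in the 3 pairs although the levels were not, and the ranges overlapped through replicate 1. Its log2 change was 1.27 (SE 0.37, edgeR adjusted p 0.11), with 0.018 without all replicate 1 libraries, 0.0062 without the replicate 1 library with LIF2i and 0.013 by DESeq2. These 3 of 20 alternatives were the only ones to call Sox1. Sox11 was at 91.7, 47.1 and 69.2 CPM, overlapping the control range of 49.8 to 81.2 CPM, with a log2 change of 0.03 (SE 0.38, edgeR adjusted p 0.98).

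Pax6 was at 7.06, 9.34 and 10.4 CPM with CK666 against 5.64, 1.76 and 1.73 CPM in control cells. The difference rested on replicates 2 and 3, where CK666 libraries were at 5.29 and 6.05 times their partners, while replicate 1 was at 1.25. The log2 change was 1.47 (SE 0.94, edgeR adjusted p 0.43) with all libraries, 2.48 (adjusted p 0.0020) without all of replicate 1 and 1.70 (adjusted p 0.033) without the replicate 1 library with LIF2i. Only these 2 of 20 alternatives called Pax6. Zic1 held 52, 20 and 19 estimated counts with CK666 against 12, 3 and 15, and was not called (1.64, SE 0.92, edgeR adjusted p 0.36). Hes5 held 1, 6 and 1 estimated counts against 9, 14 and 12, and was not called either (-2.31, SE 1.0, edgeR adjusted p 0.25).

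Zic2 was at 125, 31.1 and 46.8 CPM with CK666, at 0.637, 0.312 and 0.447 of the paired controls. Its log2 change of -1.10 (SE 0.32, edgeR adjusted p 0.11) was called in 4 of 20 alternatives, at -1.43 without all replicate 1 libraries (adjusted p 0.00091), at -1.61 without the replicate 1 CK666 library (0.032), at -1.17 without the replicate 1 library with LIF2i (0.0048) and by DESeq2 (0.0043). Zic5 was at 88.8, 49.4 and 46.7 CPM, nearly equal to the control in replicate 1 (ratio 0.986) and lower in the others (0.740 and 0.589). Its log2 change was -0.39 (SE 0.16, edgeR adjusted p 0.21), and -0.62 (adjusted p 0.020) without all replicate 1 libraries, the 1 of 20 alternatives that called it. Tubb3 was at 47.8, 13.4 and 10.6 CPM, with a log2 change of -0.26 (SE 0.20, edgeR adjusted p 0.51).

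Cells with CK666 were also set against self-renewing cells, and 4 of the 10 members were called, against 36.9% of all genes tested, 19.8% raised and 17.1% lowered. Sox3 (4.40, SE 0.42, edgeR adjusted p 7.7e-05), Sox11 (4.06, SE 0.46, 0.00029) and Zic5 (0.93, SE 0.16, 0.0020) were higher on the log2 scale, in 3 of 3 pairs and in 20 of 20 alternatives. Tubb3 was lower (-1.78, SE 0.20, edgeR adjusted p 0.00017), a call lost without the replicate block (adjusted p 0.13). Nes (0.11, SE 0.22) and Sox1 (-0.09, SE 0.37) were not called and their pairs disagreed in direction, with edgeR adjusted p of 0.73 and 0.87. Zic2 was at 3.75, 0.904 and 1.23 times its partner and was not called (0.69, SE 0.33, edgeR adjusted p 0.14). Pax6 (2.65, SE 0.97, edgeR adjusted p 0.064) and Zic1 (2.86, SE 1.0, edgeR adjusted p 0.053) were above every self-renewing library with CK666 without passing. Pax6 passed in 4 of 20 alternatives, at 2.15 without all replicate 1 libraries (adjusted p 0.00047), at 1.86 without the replicate 1 library with LIF2i (0.014), at 3.02 without the replicate 1 control library without LIF2i (0.017) and by voom (0.036). For Zic1, dropping the self-renewing library of replicate 2 gave 4.18 (adjusted p 0.035), and DESeq2 (0.018) and voom (0.035) called it as well. Both other filters on low counts also gave a call (0.043 and 0.045). Under the filter of at least 1 CPM in at least 3 libraries, Zic1 was tested only through the CK666 group. Zic1 stood at 2.46, 1.13 and 1.06 CPM there and at no more than 0.81 CPM elsewhere, so that call is not separate evidence.

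The members spanned a wide range of abundance per transcript length. With LIF2i the mean TPM ran from 79.7 ± 83.7 for Tubb3 and 22.3 ± 3.08 for Zic2 over Nes (13.9 ± 2.04), Zic5 (13.0 ± 5.09) and Sox1 (4.85 ± 3.04) to Pax6, Sox3, Sox11, Hes5 and Zic1, all under 1 TPM on average. Only the steps from Zic2 to Nes and from Sox1 to Pax6 in this order were free of overlap between libraries. After withdrawal Zic2 led with 89.7 ± 46.2 TPM, ahead of Nes (37.3 ± 4.87), Zic5 (36.5 ± 12.4) and Sox3 (35.6 ± 5.88), whose ranges overlapped. With CK666 the order began with Zic2 (44.9 ± 36.6), Zic5 (29.5 ± 17), Tubb3 (21.3 ± 20.1), Nes (15.8 ± 4.93) and Sox3 (15.5 ± 6.72), each overlapping the next. Sox1 stayed at 2.98 ± 3.67 TPM after withdrawal and 6.51 ± 7.23 TPM with CK666, with the highest value in replicate 1 in both groups.

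**Figure D3:**
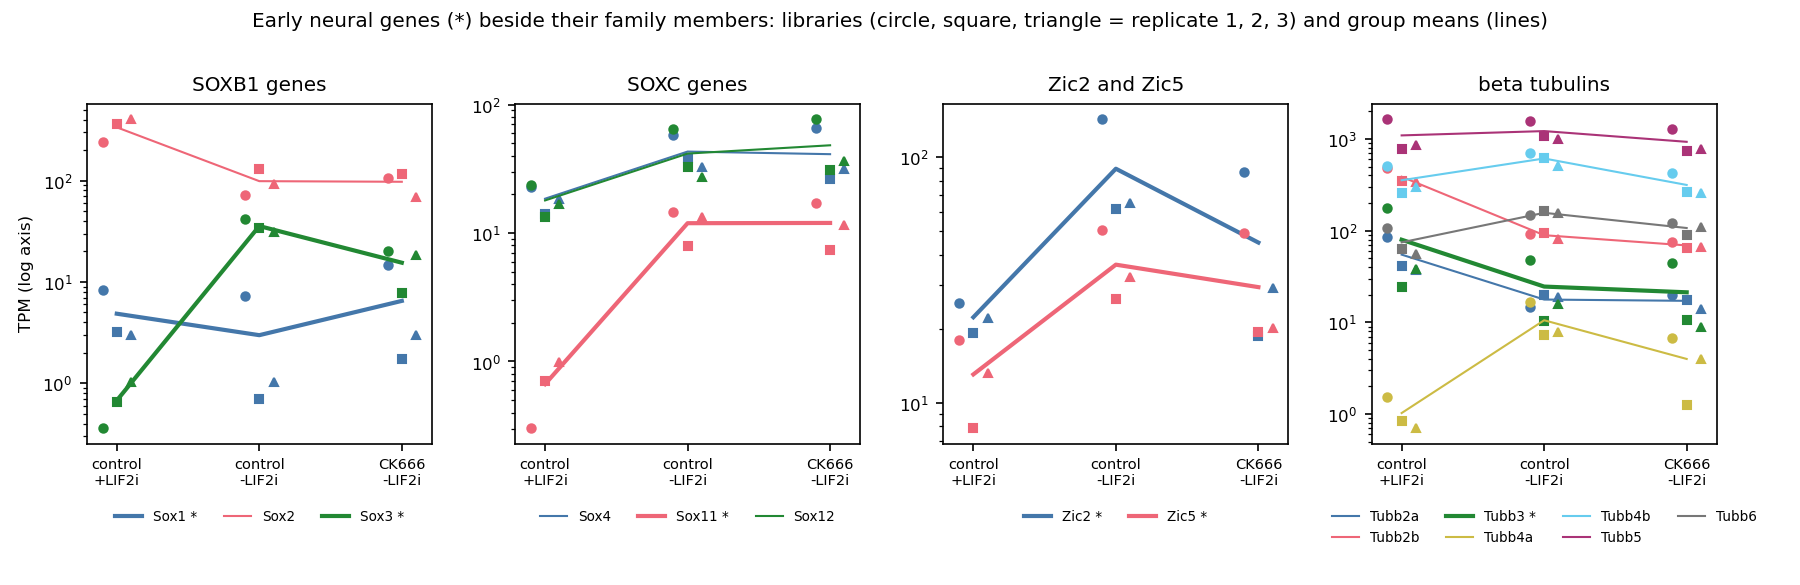
TPM on a log axis of SOXB1, SOXC and β-tubulin genes and of Zic2 and Zic5 in each library (symbols mark replicates, lines join group means, members carry an asterisk). Sox3 moves from the bottom of the SOXB1 panel to within reach of Sox2 after withdrawal, while Tubb3 lies well below Tubb5 in all 3 groups. Tubb1, at 0 in some libraries, is not drawn.

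Relatives of the members show where their transcripts stand within each family. Sox3 made up 0.144%, 0.178% and 0.250% of the summed TPM of Sox1, Sox2 and Sox3 with LIF2i, 34.5%, 20.5% and 24.6% after withdrawal, and 14.3%, 6.20% and 20.3% with CK666. The share was lower with CK666 in each pair. Sox2, the SOXB1 factor of pluripotent cells, fell by 1.84 on the log2 scale after withdrawal (SE 0.26, edgeR adjusted p 0.00059) and still made up 59.6% to 79.1% of the 3 genes, against 96.5% to 99.0% with LIF2i. Sox1 remained a minor part, between 0.427% and 10.4% over all libraries. Sox11 made up 0.646% to 2.73% of the SOXC transcripts with LIF2i and 10.1% to 18.2% after withdrawal, beside Sox4 (1.16, SE 0.20, edgeR adjusted p 0.0015) and Sox12 (1.10, SE 0.18, edgeR adjusted p 0.0012), which rose too. Sox4 shares 54.6% of its exonic bases with another annotated gene, so its counts are uncertain. Zic4 had 0 counts in all libraries with LIF2i and no more than 8 in any other. Sox21, which antagonises SOXB1 activity, fell by 2.66 (SE 0.46, edgeR adjusted p 0.0016). In all, 2 of 5 tested genes of this list (7 fixed) rose and 2 fell after withdrawal, beside 21.1% raised and 19.7% lowered over all genes. For CK666 0 were called by edgeR, DESeq2 or voom, beside 2.05% of all genes by edgeR. There 1 had an unadjusted edgeR p under 0.05, and the median was 0.06 against 0.02 over all genes.

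Tubb3 was a minor β-tubulin in every library, with 0.521% to 5.84% of the summed TPM of 8 β-tubulin genes, while Tubb5 held 51.5% to 64.8%. Tubb2a (-1.57, SE 0.25, edgeR adjusted p 0.0012) and Tubb2b (-2.14, SE 0.12, edgeR adjusted p 4.1e-06) fell after withdrawal along with Tubb3. Tubb6 (1.09, SE 0.17, edgeR adjusted p 0.0011) and Tubb4a (3.27, SE 0.39, edgeR adjusted p 0.00021) rose, the latter from 1.82, 1.41 and 1.09 CPM to 20.6, 11 and 11.7 CPM. Tubb5 was not called (0.14, SE 0.13, edgeR adjusted p 0.42). Of 6 tested genes among the other β-tubulins 3 rose and 2 fell, beside 21.1% raised and 19.7% lowered over all genes. Their median was 0.47, against 0.01 over all genes. For CK666 Tubb4b was the 1 called, at -0.97 (SE 0.14, edgeR adjusted p 0.025), where 2.05% of all genes were called and 0.894% lowered. DESeq2 lowered 3, voom 2 and edgeR with no filter 2 of 7, with the calls over all genes in these fits given below. By edgeR 0 of the 6 were called without the replicate block, without all replicate 2 or without all replicate 3 libraries (3, 2 and 3 at an unadjusted p under 0.05), nor without any single library of replicate 2 or 3 from either group compared. Without all replicate 1 libraries 5 of the 6 were lowered, against 12.3% of all genes called in either direction in that fit.

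Of 30 listed genes of neural progenitors and of regional identity 19 were tested, of which 5 rose, 6 fell and 8 were not called after withdrawal, beside 21.1% raised and 19.7% lowered over all genes. Their median was -0.94, against 0.01 over all genes. Pou3f1, a POU factor of the formative state that also promotes neural fate, rose by 4.12 (SE 0.37, edgeR adjusted p 7.5e-05). Hesx1, a forebrain homeobox gene that is also active in embryonic stem cells, changed by -3.73 (SE 0.68, edgeR adjusted p 0.0022) and Ncam1, a neural cell adhesion molecule, by -3.67 (SE 0.27, edgeR adjusted p 1.6e-05). Vim, which encodes the intermediate filament that assembles with nestin, went from 253, 137 and 164 CPM to 61.1, 47.8 and 43.7 CPM (-1.83, SE 0.13, edgeR adjusted p 1.3e-05), opposite to Nes. Hes1, the NOTCH target related to Hes5, fell by 0.94 (SE 0.19, edgeR adjusted p 0.0037). For CK666 the list had a median of 0.54, against 0.02 over all genes. Of the 19 tested genes 1 was called, where 2.05% of all genes were called and 1.15% raised. This was Ncam1, at 15.8, 4.46 and 4.10 CPM in control cells and 21.8, 14.2 and 15.6 CPM with CK666 (1.33, SE 0.26, edgeR adjusted p 0.040). DESeq2 called 2 genes of the list raised and 3 lowered, and voom 1 raised, and edgeR with no filter 1 raised and 1 lowered. Without all replicate 1 libraries 1 was raised and 3 were lowered, where 12.3% of all genes were called. The call of Ncam1 was lost without the replicate block, without all libraries of replicate 2 or 3, and without any single library of replicate 2 or 3.

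**Figure D4:**
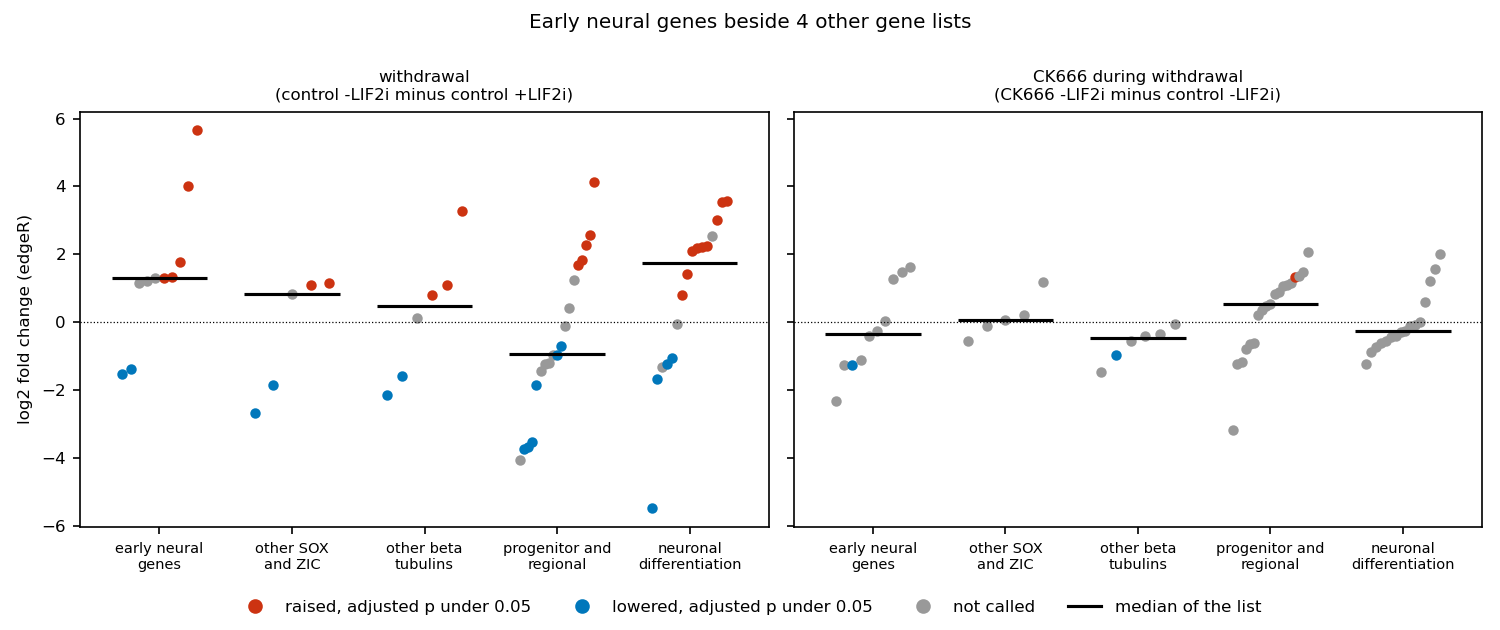
log2 fold change of each tested gene of 5 lists after withdrawal (left) and for CK666 during withdrawal (right), coloured by call, with a line at the list median. Each list holds both raised and lowered genes after withdrawal, and 3 genes in the 5 lists are called for CK666: Nes, Tubb4b and Ncam1.

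Of 24 listed genes of neuronal differentiation 16 were tested, of which 9 rose and 4 fell after withdrawal (9 and 2 without the replicate block, and 6 to 10 and 2 to 4 over the 20 alternatives), beside 21.1% raised and 19.7% lowered over all genes. Their median was 1.76, against 0.01 over all genes. Mapt, which encodes the axonal protein tau, fell by 5.47 (SE 0.36, edgeR adjusted p 9.5e-06). Insm1, a factor of neuroendocrine and neuronal precursors, rose by 3.58 (SE 0.61, edgeR adjusted p 0.0015), from 0.0491, 0.105 and 0.243 CPM to 1.83, 1.25 and 1.67 CPM, and stood at 6.35, 8.61 and 4.41 CPM with CK666. The synaptic vesicle gene Syp rose by 3.55 (SE 0.35, edgeR adjusted p 6.9e-05). Dcx, a marker of migrating neurons, held 0 to 11 estimated counts per library and was under the filter. For CK666 0 of the 16 were called by edgeR (4 at an unadjusted p under 0.05), beside 2.05% of all genes. DESeq2 called 1, voom 1 and edgeR with no filter 1 of 23, and the median was -0.26 against 0.02 over all genes. Without all replicate 1 libraries 1 was raised and 1 lowered, where 12.3% of all genes were called. Without the replicate 1 library with LIF2i 1 was raised and 2 lowered, with the calls over all genes in that fit given below.

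Markers of other cell types changed between the same groups. Of 9 naive pluripotency markers 8 fell after withdrawal, beside 19.7% of all genes. The summed TPM of the 9 went from 1363 to 3186 down to 153 to 266, and to 257 to 341 with CK666. Of 6 fibroblast markers 5 were tested and 4 rose after withdrawal (2 without the replicate block), beside 21.1% of all genes. Pdgfrb, also tested, was lower in 3 of 3 pairs without passing (-0.88, SE 0.35, edgeR adjusted p 0.074). Lum had 0 counts in 8 of 9 libraries. Thy1 alone stood at 24.9, 22.4 and 21.7 TPM after withdrawal. The sum of the list, most of it Thy1 after withdrawal, was 5.97 to 13.4 TPM with LIF2i, 24.6 to 33.6 without and 15.9 to 25.7 with CK666. Neural crest markers summed to 3.94 to 10.1, 7.66 to 13.6 and 5.54 to 12.5 TPM in the same order of groups, primitive streak and mesoderm markers to 5.13 to 10.7, 5.92 to 10.5 and 2.89 to 5.10 TPM, and endoderm markers to 6.84 to 11.7, 3.72 to 12.2 and 5.70 to 11 TPM. Of these 3 lists 4, 4 and 5 genes were tested, and 3, 1 and 1 were called after withdrawal (1, 1 and 0 without the replicate block), beside 40.7% of all genes. Sox10, Foxd3 and Mixl1 were raised, and Tfap2a and Cxcr4 lowered. Mixl1 held only 0, 2 and 0 counts with LIF2i and 21, 8 and 20 after withdrawal. It passed the filter only through the groups without LIF2i. With the filter of at least 1 CPM in at least 3 libraries, 0 of 2 tested streak markers were called. Epidermal markers summed to 74.3 to 89.7 TPM with LIF2i and 3.06 to 11.3 TPM in all others. With LIF2i this was mostly Tfap2c and Grhl3, at a mean of 48.0 and 33.6 TPM, so the sum reads these 2 genes rather than the list. Of that list of 6 both tested genes fell after withdrawal, beside 19.7% of all genes. These were Tfap2c at -4.30 (SE 0.32, edgeR adjusted p 1.8e-05) and Grhl3 at -4.21 (SE 0.25, edgeR adjusted p 5.6e-06). Among the untested genes of that list Krt5 had at most 3 counts in any library and Trp63 had 0 in 8 of 9. For CK666, where edgeR called 2.05% of all genes, the 1 call among these 6 lists was Tbx3, a naive marker, at 3.31 (SE 0.52, edgeR adjusted p 0.031). It was lost without the replicate block, with no filter on low counts, without all libraries of replicate 2 or 3, and in at least 6 of the 9 fits that left out 1 library. DESeq2 and voom also called 1 naive marker raised, and DESeq2 further called 1 neural crest and 1 streak marker lowered and 1 epidermal marker raised. EdgeR with no filter also called 1 streak marker lowered. In 8 of the 9 fits that left out 1 library, 0 genes were called in each of the neural crest, streak, endoderm and epidermal lists. For the fibroblast list this held in all 9. The part of such cells in the changes of the early neural genes was not tested.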

How the data were processed

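Poly-A RNA of 9 cultures was sequenced. For each library the authors deposited estimated counts and TPM for 119414 transcripts, with transcript and effective lengths; the estimated counts are unscaled and can be fractional, and the deposited TPM sum to a fixed total. The submitters' processing notes name FastQC, cutadapt 1.8.1, kallisto and sleuth, with mm10 and GRCh38 as builds; their roles, the transcript release and strand settings are not given in the sources used here. GENCODE M21 (GRCm38) assigned a gene to 116640 transcripts (97.7%), and the rest, 0.895% to 1.08% of counts, were left out.

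Counts were summed per gene, rounded and tested with edgeR 4.0.16 in R 4.3.3 (robust quasi-likelihood, TMM, expression filter, Benjamini-Hochberg adjustment over 14648 genes), with all 9 libraries and the replicate number as a block in 1 fit with 4 residual degrees of freedom. SE values derive from the test statistic. The study's design text calls the replicates paired, and across genes, libraries with the same number deviated together from their groups (median r 0.41, range 0.30 to 0.65). Alternatives used DESeq2 1.42.0, limma 3.58.1 (voom), other scalings, filters and left-out libraries. If replicates share a source, p-values measure technical spread. The floor of 3 counts covers counting error only, whereas the SE values also take in spread between libraries.

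Members, gene lists and tests were chosen with earlier results of these data known. Genes outside the members were named if among the 3 called genes of a list with the largest change, or as near relatives (Sox2, Sox4, Zic4, Tubb2a, Tubb2b, Tubb5, Tubb6, Vim, Hes1) or a next-stage marker (Dcx), or as the 5 genes most like Nes. Lum, Pdgfrb, Krt5 and Trp63 were chosen after their values were seen. A few named genes are not reported here. Lists are described by counts and medians, without a set test. Promoter windows come from RefSeq on GRCm38.p6, the C57BL/6J reference, which is not the strain of E14.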

Additional observations from a re-analysis of the deposited data

How the results depend on the processing

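Over 20 alternatives, 536 of 594 member values kept direction and call, 19 lost their call, 23 gained one and 16 turned in sign, none of them called in the fit with all libraries. Without the replicate block 3509, 0 and 2966 genes were called for withdrawal, CK666, and CK666 against self-renewal, beside 5967, 300 and 5408, and 5, 0 and 3 members beside 7, 1 and 4; for CK666 1251 genes and 2 members then had an unadjusted p under 0.05. The block changed no member call other than those of Sox1, Tubb3 and Nes. For CK666 565 genes were called with no filter, 1140 by DESeq2 and 553 by voom, with 4 members by DESeq2 and 2 by voom. Over the 12 fits that left out libraries the genes called ran from 3099 to 6588 for withdrawal, 0 to 1811 for CK666 and 2413 to 6129 for CK666 against self-renewal, and the members called from 6 to 7, 0 to 5 and 4 to 5. In the CK666 comparison 152, 5 and 4 genes were called without the control libraries without LIF2i of replicates 1, 2 and 3, 2 and 30 without the CK666 libraries of replicates 2 and 3, 1657 and 120 without the libraries with LIF2i of replicates 1 and 3, and 1811, 8 and 0 without all of replicates 1, 2 and 3, the last with 1360 at an unadjusted p under 0.05. For CK666 against self-renewal Sox1 turned to 0.41 without the block and 0.35 by voom and ran from -0.60 to 0.44 over left-out libraries, and Nes from -0.17 to 0.46. For CK666 Sox11 turned to -0.01 by voom and ran from -0.44 to 0.23, and Tubb3 from -0.45 to 0.02. For withdrawal Pax6 ran from -0.32 to 2.25. The cause of these shifts was not tested. Hes5 and Zic1 rest on at most 14 and 52 counts in any library.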

Other observations

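The transcript models behind the members differ in how well they pin down a level. For Nes, Zic2, Sox1, Sox3, Sox11 and Tubb3 a single model carried at least 98.7% of the gene's counts in every library, and for Zic5 92.7% to 98.6%. Of 26 Pax6 models 16 had a summed count of at least 1 over the 9 libraries, and the one with the most counts held 0% to 38.9% of a library's Pax6 counts. In the replicate 1 control library without LIF2i Pax6 stood at 9.53 TPM, above the 5.10 TPM of the replicate 1 CK666 library, whereas the CPM were 5.64 and 7.06, the other way round. Hes5 reached 3.67 TPM in the replicate 2 control library without LIF2i from 14 estimated counts, 4 of them on a model of 350 bases.

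The tested protein-coding genes whose log2 CPM was most like that of Nes over the 9 libraries, out of 14159, were Raly (Pearson r 0.955), Tpm4 (0.944), Tmem79 (0.943), Tes (0.939) and Ehbp1l1 (0.939). The points share library, depth and group. The ranking used the same libraries as the comparisons, so these genes share the direction of Nes by selection.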
